A study of Rattus norvegicus with 24 samples.

Results

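In rat liver and brain, 34 of 22938 transcripts, the members, were rich in ribosome footprints relative to their RNA. They were chosen on the young animals. Levels were CPM, a transcript's counts scaled to a common library total, and the ratio was footprint CPM over RNA-seq CPM plus 0.05. A transcript was a member when its mean footprint level over the 3 young animals was at least 20 CPM and this ratio at least 4, in liver and in brain alike. A length-like second column of the files, which no header defines, also had to lie above 80 and below 2000. In all, 2733 transcripts met the footprint and length criteria, and the other 2699 of them are the comparators below. The groups were 3 old rats (24 months) and 3 young rats (6 months), each with liver and brain measured by ribosome profiling and by RNA-seq, which gives 8 groups and 24 libraries. The labels describe the animals by tissue and age alone, and the titles carry an animal code that links its libraries.

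Ribosome profiling sequences the short mRNA pieces that a translating ribosome shields from RNase I, so footprints report how many ribosomes sit on a message. RNA-seq of the same tissue reports how much of the message is present. Their ratio is often called translational efficiency, the ribosome load per copy of a message. Liver makes large amounts of secreted and metabolic proteins, and brain a wide set of neuronal and glial ones. The files give transcript identifiers alone, and 0 of the 22938 identifiers matched the rat gene table of assembly GRCr8, so no names or roles are given for any member.

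Footprint libraries held 10702456 to 15366125 counts in old liver and 11839887 to 17584871 in young liver, and 5259326 to 15618747 in old brain and 5652238 to 12932497 in young brain. RNA-seq libraries held 25444467 to 28664906 counts in old liver, 17932008 to 21134842 in young liver, 14281043 to 17551059 in old brain and 15018979 to 15447209 in young brain. The brain libraries of old animal 2 stood apart. The 50 most abundant liver-enriched transcripts reached 5.46% of that animal's own liver level in its brain footprints and 3.83% in its brain RNA-seq, against 0.0687% to 0.292% and 0.0516% to 0.109% in the other 5 animals. Carried over at those rates, liver material would make up a median of 2.0% of the members' brain footprints and 2.37% of their brain RNA-seq in old animal 2. The highest shares would be 15.9% of footprints for ENSRNOT00000051261 and 8.94% of RNA-seq for ENSRNOT00000050750. In tissue, fewer cells that express a transcript and less RNA per cell cannot be told apart.

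The high ratio was present in the old animals, which had no part in choosing the members. All 34 were higher in footprints than in RNA-seq in old brain, and all 34 in old liver (edgeR quasi-likelihood test, adjusted p at most 0.00124 for any member). Of these, 4 in brain and 5 in liver did not pass the count filter in RNA-seq alone and entered the test through the footprint libraries where they are high, so they had to differ. The calls that do not rest on such entry are the other 30 in brain and 29 in liver. Of all transcripts tested, 32.6% were called higher in old brain and 20.6% in old liver, and of the comparators 52.2% and 37.5%. A transcript with 0 RNA-seq counts has a fitted fold that depends on a prior count; the liver median below is the same with it set to its lower bound. The median log2 fold change of the members, footprints over RNA-seq, was 3.38 in old brain, against 0.01 over all tested and 0.29 over the comparators. In old liver it was 3.18, against -0.01 over all tested and 0.29 over the comparators. All 34 calls in old brain were also made without old animal 2. In old liver 33 calls were made without old animal 3, where ENSRNOT00000040927 had a log2 fold change of 2.94 (edgeR, adjusted p = 0.059).

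**Figure D1:**
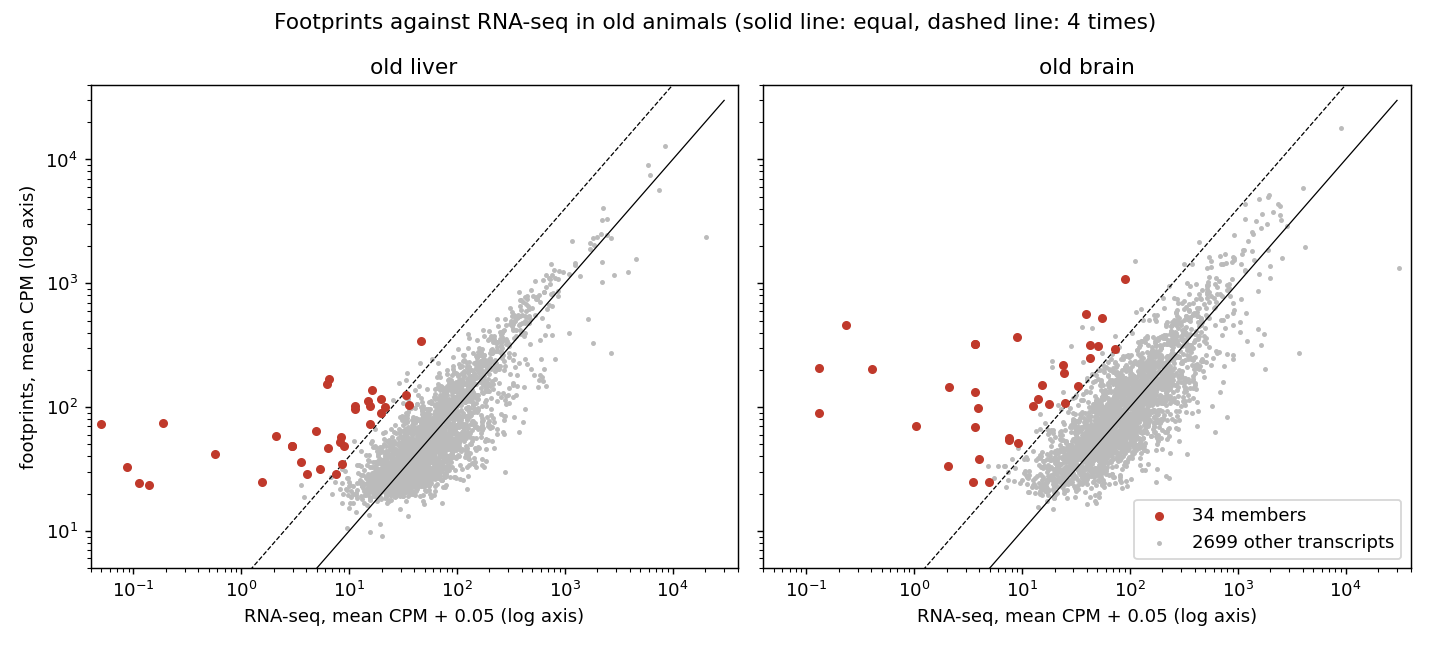
Mean footprint CPM (vertical, log axis) against mean RNA-seq CPM plus 0.05 (horizontal, log axis) over 3 old animals, in liver and brain. Red points are the 34 members and grey points the 2699 comparators. The solid line marks equal levels and the dashed line a ratio of 4. All 34 members lie above the dashed line in old brain and 31 in old liver.

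The members differed from the comparators in RNA level more than in footprint level. Their median RNA-seq level was 7.01 CPM in old liver and 8.23 CPM in old brain, against 53.5 and 84.3 CPM for the comparators. Their median footprint level was 61.2 CPM in old liver and 147 CPM in old brain, against 49.6 and 86.0 CPM for the comparators. Together the members took 0.252% to 0.306% of footprint counts in old liver and 0.238% to 0.263% in young liver. Their share of RNA-seq counts was 0.0321% to 0.0392% in old liver and 0.0275% to 0.0346% in young liver. In brain they took 0.706% to 0.739% of footprint counts in old and 0.723% to 0.743% in young animals, and 0.0608% to 0.0646% and 0.0622% to 0.0644% of RNA-seq counts. The ranges of old and young overlapped in both organs and both assays. The rule used footprint and RNA levels of young animals, so these medians describe the choice as much as the transcripts.

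At the high end of the ratios stood 5 transcripts whose RNA-seq mean was under 1 CPM in both organs of young animals. ENSRNOT00000044428, with a second-column value of 133, had footprint levels of 65.0, 63.9 and 89.2 CPM in old liver and 78.8, 95.3 and 71.8 CPM in young liver. Its liver RNA-seq count was 0 in all 6 animals. Taking 3 counts over each group as the floor, footprints were at least 1978-fold higher than RNA-seq in old liver and at least 1564-fold higher in young liver. In brain its footprints were 239, 201 and 187 CPM in old and 176, 177 and 185 CPM in young animals. All 3 old brain values were above the young ones. Its brain RNA-seq counts were 2, 1 and 1 in old animals and 0 in each young one, which puts the fold at 2441 in old brain (95% exact Poisson interval 953 to 8958) and at 2734 or more in young brain.

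ENSRNOT00000022565 had footprint levels of 508, 446 and 432 CPM in old brain and 575, 583 and 506 CPM in young brain. Its RNA-seq counts there were 5, 1 and 3 in old and 2, 1 and 2 in young animals. In liver the footprint levels were 30.0, 29.3 and 39.0 CPM in old and 43.0, 47.8 and 38.8 CPM in young animals, with 3 RNA-seq counts over the old group and 4 over the young group. Its footprints were over 10 times higher in brain, in every animal. The fold was 888 in old liver (95% exact Poisson interval 304 to 4305) and 2413 in old brain (1271 to 5278), and the intervals overlap.

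ENSRNOT00000059870 had ratios of 365, 612 and 309 in old liver and 353, 984 and 827 in young liver. In brain its ratios were 453, 604 and 449 in old and 209, 1019 and 570 in young animals. The ages overlapped in both organs, and the young animals were spread further. ENSRNOT00000042056 had ratios of 195, 167 and 157 in old liver and 259, 349 and 175 in young liver, with 7 and 2 RNA-seq counts over the groups. Its brain ratios were 631, 806 and 633 in old and 527, 2134 and 391 in young animals, and the value of 2134 came from a library with 0 RNA-seq counts. For these transcripts the ratio rests on a handful of RNA reads, and intervals cover counting error only. ENSRNOT00000047079, the fifth, had 22, 8 and 12 RNA-seq counts in old liver and 9, 7 and 10 in young liver, with ratios of 51.2, 98.1 and 94.5 in old and 102, 68.4 and 43.8 in young animals. Its brain ratios of 88.7, 84.3 and 49.0 in old and 86.9, 87.5 and 53.4 in young animals covered almost the same span.

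Counting these 5, 11 members had a ratio of at least 10 in all 12 combinations of animal and organ. The young combinations among these were used to choose the members. ENSRNOT00000050750 had footprint levels of 137, 186 and 142 CPM in old liver and 120, 129 and 98.7 CPM in young liver. Its RNA-seq levels there were 6.00, 7.78 and 4.92 CPM in old and 5.02, 5.60 and 5.63 CPM in young animals. In brain, with footprints at 136, 138 and 126 CPM in old and 138, 150 and 122 CPM in young animals, the ratio was 36.8, 40.6 and 32.3 in old and 41.7, 45.5 and 43.9 in young animals. The old brain ratios all lay below the young ones for this transcript, while its liver ratios of 22.7, 23.8 and 28.5 in old and 23.7, 22.8 and 17.4 in young animals overlapped. Brain ratios of the ages did not overlap for 5 of 34 members, against 17.6% of comparators.

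ENSRNOT00000067592 and ENSRNOT00000063820 could not be separated. Their counts differed in 3 of 24 libraries, by at most 7 counts, and their second-column value was 331 for both. They are a single measurement, chosen for mention after this was seen, so the 34 members hold 33 distinct count profiles. No other transcript came within 1% of a member's counts over all libraries. The rule by which reads with several matching places were counted is not given in the sources used here, so members with near-identical copies elsewhere are uncertain.

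Several abundant members had ratios nearer the threshold. ENSRNOT00000051185 had the highest footprint level of the set, 1111, 1093 and 1053 CPM in old brain and 1106, 974 and 1060 CPM in young brain. Its brain ratios of 11.8, 11.9 and 12.1 in old and 11.9, 10.6 and 12.3 in young animals overlapped closely. In liver it was far less abundant, with 43.4, 39.2 and 58.8 footprint CPM in old and 35.8, 42.9 and 41.3 CPM in young animals, yet its ratio was 7.48, 8.37 and 6.98 in old and 5.37, 10.4 and 8.34 in young liver. ENSRNOT00000046993 was also more abundant in brain, with 572, 587 and 523 footprint CPM in old brain and 650, 586 and 589 CPM in young brain. ENSRNOT00000038163 differed from both in being more abundant in liver, where footprints stood at 313, 408 and 298 CPM in old and 280, 291 and 271 CPM in young animals. Its liver ratios were 7.28, 7.64 and 6.94 in old and 8.59, 8.17 and 9.03 in young animals, and these did not overlap. Liver ratios of the ages did not overlap for 3 of 34 members, against 33.5% of comparators. ENSRNOT00000040927 had brain ratios of 8.25, 10.2 and 10.4 in old and 7.11, 8.57 and 8.80 in young animals. Its liver footprints stood at 129, 53.8 and 155 CPM in old and 40.03, 96.6 and 128 CPM in young animals, and its liver RNA-seq varied with them, at 18.3, 7.94 and 18.6 CPM in old and 7.95, 11.6 and 15.3 CPM in young animals. Its liver ratio of 7.03, 6.73 and 8.31 in old and 5.01, 8.27 and 8.35 in young animals spread less than either level.

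Other members lay at the threshold. Just inside it, the smaller of both young ratios was 4.01 for ENSRNOT00000049001, 4.08 for ENSRNOT00000001035 and 4.32 for ENSRNOT00000051261. Just outside, it was 3.95 for ENSRNOT00000024276, 3.94 for ENSRNOT00000044446 and 3.89 for ENSRNOT00000040365. In old animals the first of these, ENSRNOT00000049001, had a ratio of 2.88 in liver and 4.09 in brain. The last, ENSRNOT00000040365, had 3.23 in old liver and 4.20 in old brain. Old values of transcripts on either side of the threshold thus overlapped.

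**Figure D2:**
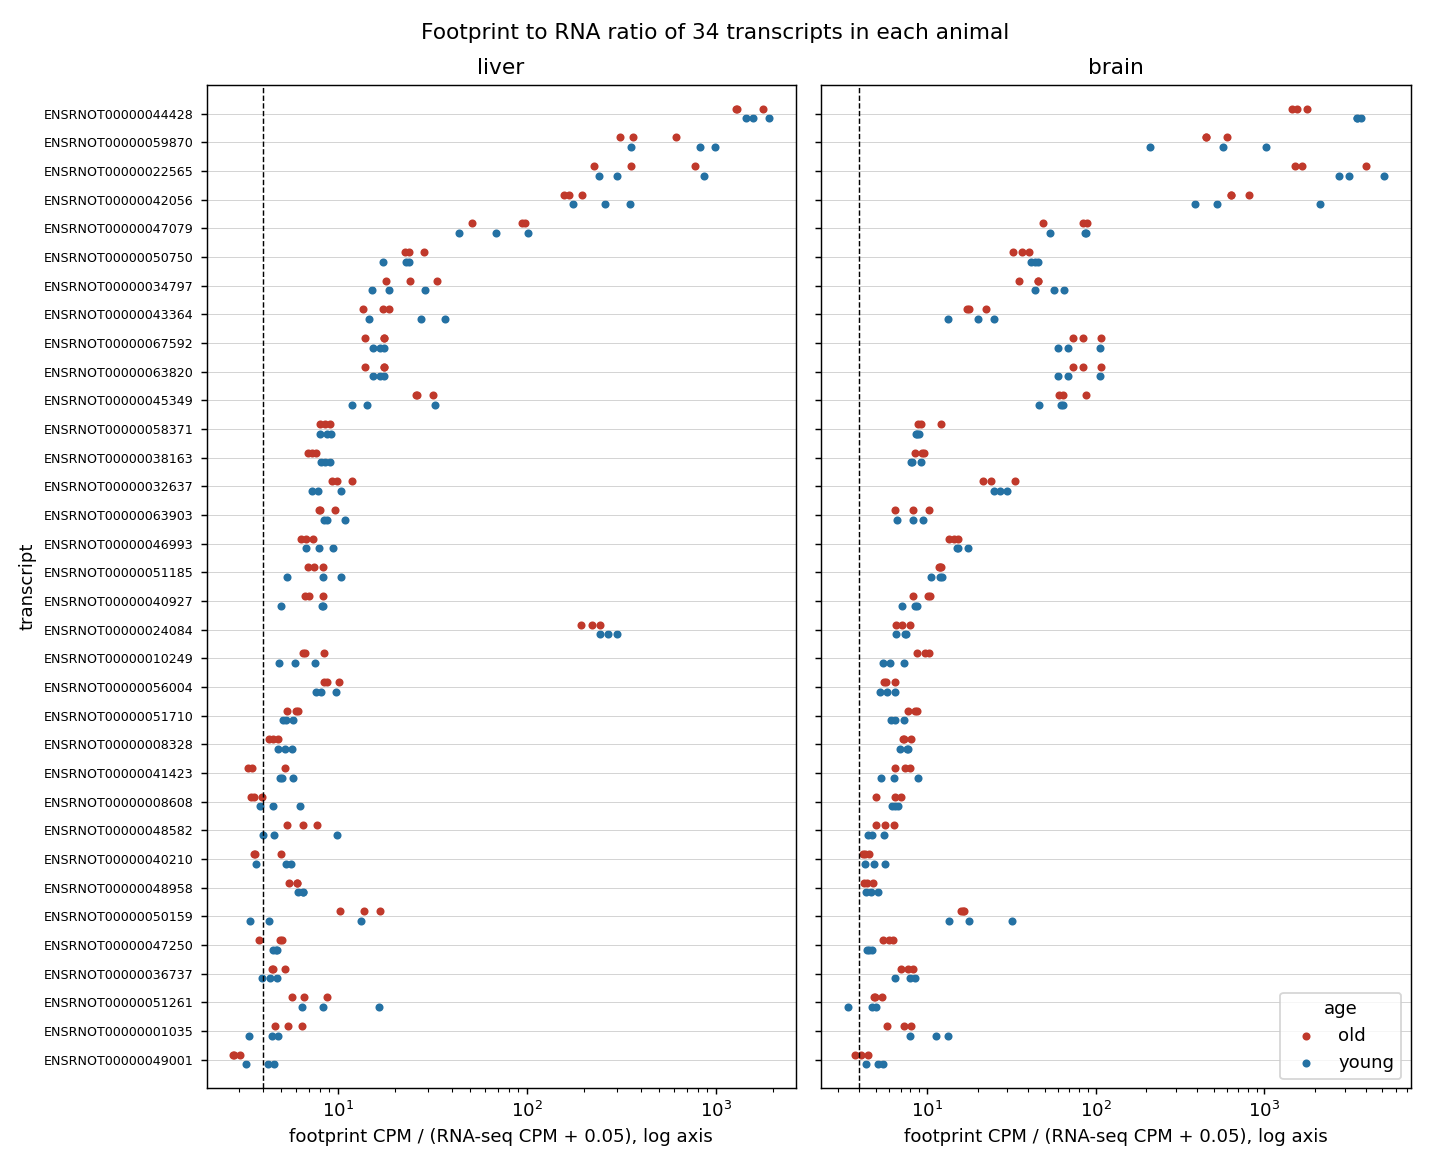
Ratio of footprint CPM to RNA-seq CPM plus 0.05 (horizontal, log axis) for each of the 34 members (vertical, ordered by the smaller young ratio) in liver and brain. Each point is 1 animal, old in red and young in blue, and the dashed line is the threshold of 4. In old brain 34, 34 and 33 members reach the threshold in animals 1 to 3, and in old liver 31, 30 and 30.

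The median ratio over the members was similar between animals of one age, which does not show agreement for each member. This median was 8.27, 8.43 and 8.17 in the 3 old livers and 8.97, 8.22 and 8.34 in the 3 young ones. In brain it was 9.21, 9.99 and 9.59 in old and 8.37, 9.38 and 8.53 in young animals. The comparators' median lay between 0.991 and 1.14 in all 12 combinations. Of the members, 25 stayed at or above 4 in every animal and organ and all 34 at or above 2. The young values among these chose the members, so both counts were set in part by the rule. The old group means reached 4 for 34 members in brain and 31 in liver, where the exceptions were ENSRNOT00000049001 at 2.88, ENSRNOT00000008608 at 3.70 and ENSRNOT00000041423 at 3.81. Among the comparators 4 reached 4 in both organs of old animals.

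Spread between animals was set beside the spread that counting alone would give. The SD of the log2 ratio over 3 animals had a median over members of 0.18 in old liver, 0.26 in young liver, 0.16 in old brain and 0.19 in young brain. The SD that Poisson counting of both assays would give, with a count of 0 set to 1, had medians of 0.12, 0.14, 0.14 and 0.15 in the same order. Where RNA-seq counts are 0, the offset and the replaced count set both values, so they say nothing of stability there. Animal spread exceeded 2 times the counting SD for 9 members in old liver, 14 in young liver, 5 in old brain and 12 in young brain. For the comparators, which have more RNA counts and thus a smaller counting error, this share was 45.5%, 53.8%, 40.3% and 42.8%. Their median SD over animals was 0.12, 0.15, 0.11 and 0.12. Over all 6 animals the highest ratio was at most 2 times the lowest for 24 members in liver and 28 in brain, against 92.6% and 98.0% of comparators.

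**Figure D3:**
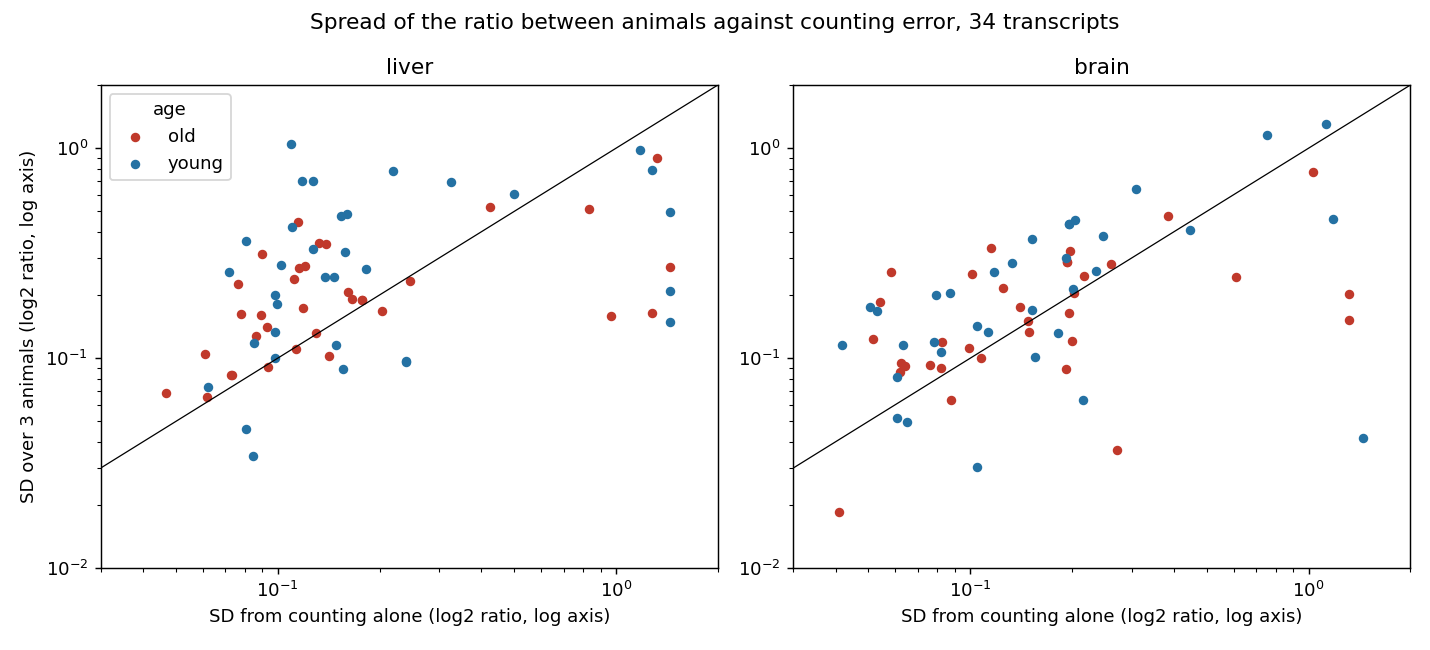
SD of the log2 ratio over 3 animals (vertical, log axis) against the SD expected from counting alone (horizontal, log axis) for the 34 members in liver and brain, old in red and young in blue. The line marks equality. Points at the far right are members with a handful of RNA-seq counts, and 14 young liver points lie above 2 times the counting SD.

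The order of the members was alike in old and young animals. Across the 34 members the mean log2 ratio correlated between old and young at r = 0.987 in liver (Spearman's rho 0.938) and r = 0.994 in brain (rho 0.953). For the comparators r was 0.944 in liver (rho 0.950) and 0.980 in brain (rho 0.976). By rho, the order was thus kept no better among the members than among the comparators. These describe transcripts, which are not replicates, and the ratios of one group share the same libraries and offset. The 5 members with RNA-seq under 1 CPM span most of the range.

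With age, 0 of the 34 members changed in ratio in either organ (edgeR interaction of age and assay, adjusted p at least 0.154 in brain and 0.273 in liver). Of all transcripts tested, 0.0818% were called in brain and 0% in liver. At an unadjusted p under 0.05 there were 6 members in brain, where 7.10% of all transcripts passed, and 6 in liver, where 10.1% passed. DESeq2 called 1 member in brain and 0 in liver, and 0.341% and 0.907% of all transcripts. A missed threshold does not show equality: the median SE of a member's log2 change was 0.16 in brain and 0.28 in liver. Since the young values chose the members, a lower ratio in old animals can come from the choice alone. Blocking on the animal, 4 members were called lower in old liver, ENSRNOT00000049001, ENSRNOT00000008608, ENSRNOT00000038163 and ENSRNOT00000041423, with log2 changes of -0.71, -0.63, -0.48 and -0.68 (edgeR, adjusted p 0.0107 to 0.0309). The same block called 4.08% of all transcripts lower and 2.66% higher. These include the 3 that fell below 4.

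The size of the liver change differed between measures, and for the comparators its direction did too. With TMM factors 28 of 34 members had a lower fitted ratio in old liver, with a median log2 change of -0.27, against -0.17 for the comparators and -0.05 over all tested. With library totals, and mean log2 ratios in place of the fit, 20 of 34 were lower, with a median of -0.03. The comparators then had a median of 0.08. TMM moved the log2 ratio by 0.17 in old liver and 0.43 in young liver relative to totals, and by 0.08 in old brain and 0.05 in young brain. In brain the members' median was 0.06 with TMM and 0.01 with totals, and -0.03 with TMM when old animal 2 was left out. Relative to the comparators, the liver members lay lower under both scalings. Young ratios divided members from comparators, so this contrast can come from the choice alone. No member was called for a difference between the age changes of liver and brain (0 of 34, edgeR three-way interaction, adjusted p at least 0.485, DESeq2 0). Of all transcripts, edgeR called 0.0197% and DESeq2 0.295%. At an unadjusted p under 0.05 there were 6 members in this edgeR test, where 8.09% of all transcripts passed. The missed threshold does not show that the age changes were equal: the median SE of a member's log2 difference was 0.35.

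The assays were also compared between ages one at a time. In brain RNA-seq 0 of the 30 members that passed the count filter were called (edgeR, adjusted p at least 0.45, 0 at an unadjusted p under 0.05, DESeq2 0), against 0.472% of all transcripts. There 14.0% of all transcripts had an unadjusted p under 0.05 and DESeq2 called 2.12%. In liver RNA-seq 0 of 29 were called (edgeR, adjusted p at least 0.0619, 10 at an unadjusted p under 0.05, DESeq2 3), against 0.0164% of all transcripts. Over all transcripts 23.1% had an unadjusted p under 0.05 and DESeq2 called 8.88%. In liver footprints 0 of 34 were called (edgeR, adjusted p at least 0.245, 4 at an unadjusted p under 0.05, DESeq2 0), against 0.0176%. There 12.2% of all transcripts had an unadjusted p under 0.05 and DESeq2 called 1.94%. The members that did not pass the filter had RNA-seq means under 1 CPM in that organ.

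In brain footprints 2 members were called, 1 higher and 1 lower, against 1.71% of all transcripts, 0.789% higher and 0.921% lower. ENSRNOT00000047250 had 262, 247 and 244 CPM in old and 206, 202 and 211 CPM in young brain, with no overlap, while its RNA-seq stood at 41.6, 41.2 and 44.0 CPM in old and 45.3, 42.6 and 47.8 CPM in young brain. Its footprints rose by a log2 fold change of 0.29 (SE 0.0717, edgeR, adjusted p = 0.0374). Its brain ratios of 6.28, 6.00 and 5.54 in old animals all lay above 4.54, 4.73 and 4.41 in young ones, a log2 change of 0.42 (SE 0.0911) that edgeR did not call (adjusted p = 0.154) and DESeq2 did (adjusted p = 0.00627). ENSRNOT00000034797 had 370, 368 and 376 footprint CPM in old brain and 419, 489 and 431 CPM in young brain, a log2 fold change of -0.26 (SE 0.0663, edgeR, adjusted p = 0.0469). In liver its footprints were 114, 143 and 245 CPM in old and 91.3, 105 and 117 CPM in young animals. Leaving out any single library except that of young animal 1 lost the call of ENSRNOT00000034797, and leaving out any single library lost that of ENSRNOT00000047250. Over the alternatives of edgeR and DESeq2 the adjusted p ranged from 0.0216 to 0.307 for ENSRNOT00000034797 and from 0.00717 to 0.188 for ENSRNOT00000047250. Without old animal 2 the log2 fold changes were 0.28 for ENSRNOT00000047250 (edgeR, adjusted p = 0.0791) and -0.27 for ENSRNOT00000034797 (0.0589).

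Liver and brain were compared in old animals, which the rule did not use. The ratio differed between the organs for 9 members, 2 higher and 7 lower in liver (edgeR interaction of organ and assay over 12 libraries). Among the 2 higher, ENSRNOT00000024084 entered the test through groups other than old liver RNA-seq, where its counts lay under the filter minimum. Its call is therefore given as a description only. Of all transcripts, 10.2% were called, 4.49% higher and 5.67% lower, and of the comparators 15.7%, 6.89% higher and 8.86% lower. The members' median log2 difference, liver minus brain, was -0.33, against 0.00 for the comparators and -0.05 over all tested. The calls numbered 3 when old animal 1 was left out, 3 when old animal 2 was, and 9 when old animal 3 was. The 3 were ENSRNOT00000024084 and the pair ENSRNOT00000067592 and ENSRNOT00000063820 in either case. Of all transcripts, 1.14%, 2.61% and 6.14% were called in those fits, in the order of the animal left out. With the animal as a block, 11 members were called, which adds ENSRNOT00000041423 at -0.85 (edgeR, adjusted p = 0.036) and ENSRNOT00000008608 at -0.66 (0.0447), against 10.9% of all transcripts.

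The organs stood furthest apart for ENSRNOT00000024084. Its footprints were 18.7, 21.7 and 32.3 CPM in old liver and 59.3, 54.8 and 49.8 CPM in old brain. Its RNA-seq counts were 1, 1 and 3 in old liver, against 157, 111 and 99 in old brain. The ratio was therefore 220, 244 and 194 in old liver and 6.60, 7.93 and 7.13 in old brain, a log2 difference of 5.71 (SE 0.396, edgeR, adjusted p = 2.9e-05). The difference ranged from 5.47 to 6.05 over the alternatives and its adjusted p from 2.08e-14 to 0.0175. Young animals had 242, 270 and 298 in liver and 7.49, 7.48 and 6.63 in brain. The pooled fold in old liver was 401 (95% exact Poisson interval 172 to 1235), which leaves the size of the difference loosely fixed. The test rests on 5 RNA-seq counts over the old liver group, so its p-values serve as description only.

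ENSRNOT00000056004 was the other member higher in liver, with ratios of 8.71, 10.1 and 8.40 in old liver and 6.47, 5.60 and 5.74 in old brain. The log2 difference was 0.69 (SE 0.17, edgeR, adjusted p = 0.0248), and the call was lost when any of the 3 old animals was left out (adjusted p 0.0543 to 0.204). The largest fall in liver was that of the inseparable pair ENSRNOT00000067592 and ENSRNOT00000063820, with 17.5, 14.0 and 17.6 in old liver and 73.2, 108 and 83.8 in old brain. The log2 difference was -2.33 (SE 0.272, edgeR, adjusted p = 0.000362) and -2.53 to -2.02 over the alternatives, with the call kept in each. Their RNA-seq levels were close between the organs, 2.23, 2.71 and 3.83 CPM in old liver and 3.82, 3.15 and 3.92 CPM in old brain, while footprints were 39.9, 38.6 and 68.2 CPM in old liver and 283, 347 and 333 CPM in old brain. The other 5 members called lower in liver had log2 differences of -1.22 to -0.63, and counting the pair once leaves 6 distinct profiles.

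**Figure D4:**
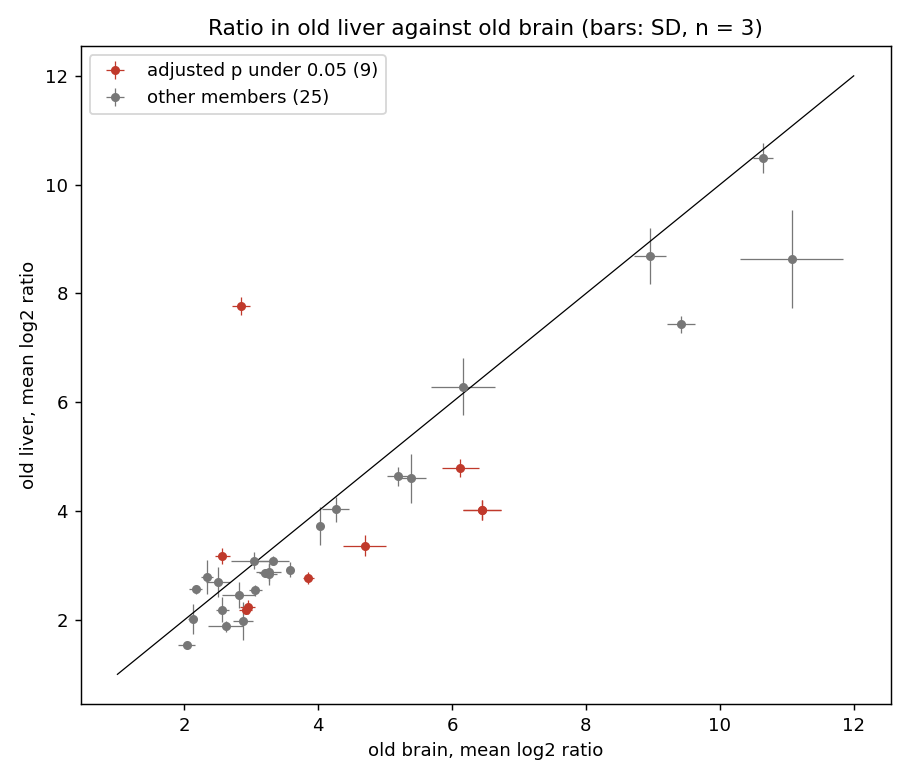
Mean log2 ratio in old liver (vertical) against old brain (horizontal) for the 34 members, with bars for the SD over 3 animals and a line of equality. Red points are the 9 members with adjusted p under 0.05 for the organ difference, 2 above the line and 7 below it. The red point far above the line is ENSRNOT00000024084.

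Other traits of the members were also described. The second-column value had a median of 269 over the members and 458 over the comparators, and lay under 150 for 11 members (32.4%), against 9.67% of comparators. The rule bounded this value, so no test is given. Footprint levels were lower in old liver than in old brain for 27 members (79.4%) and RNA-seq levels for 26 (76.5%), against 76.1% and 73.8% of comparators. Across the 34 members the mean log2 ratio of old liver correlated with that of old brain at r = 0.869 (rho 0.808), against 0.814 (rho 0.802) for the comparators.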

How the data were processed

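Each deposited file held whole-number counts per transcript for 1 library, not normalised by the authors, beside an undefined second column, so 24 files were joined on identifier. Per the labels' protocols, RNA-seq used a stranded kit, and footprints RNase I digestion and ribosome pelleting. Build rn4, TopHat2 2.0.10, DESeq and Bowtie 1.0.0.0 appear in the submitters' processing notes. Annotation and counting rule: not given in the sources used here.

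From these counts, CPM used library totals. Tests ran in R 4.3.3 with edgeR 4.0.16 (robust two-sided quasi-likelihood F test, TMM factors, expression filter with minimum count 10 and minimum total 15, Benjamini-Hochberg over all transcripts tested, threshold 0.05). SEs came from the F statistic. The functions were tested on simulated data. DESeq2 1.42.0, median-ratio factors, no filter, an animal or replicate block and leaving out each animal were alternatives. Titles carry 1 animal code across organs and assays, so blocked values stand where they change a call. Over 14217 transcripts, deviations of the same animal correlated between assays at 0.181 to 0.304 in young brain and 0.404 to 0.754 in liver. Old brain gave 0.440 to 0.818. The highest value was that of old animal 2, whose brain libraries stood apart in liver-enriched transcripts in both assays.

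Transcripts named are those with the 6 highest smaller ratios, the 6 highest footprint sums, up to 2 rises and 2 falls called per comparison, 3 on each side of the threshold, and others said to be chosen by their values. The members and lists were chosen with earlier results of these data known. Sources do not say that animals are independent beyond their codes, so p-values measure spread between these samples. PCR reads lack molecular identifiers, so floors (3 counts) and 95% intervals cover counting error only.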

Additional observations from a re-analysis of the deposited data

How the results depend on the processing

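The number of members was 34 and became 51 at a ratio of 3, 20 at a ratio of 6, 64 with a footprint minimum of 10 CPM, 16 with 50 CPM, 31 with an offset of 0.5 CPM, 37 without bounds on the second column, 41 with old in place of young files (31 of them shared) and 35 to 37 with each young animal left out. With TMM-scaled CPM it was 60, of which 31 were among the 34. The number of members higher in footprints than in RNA-seq in old animals was 34 in brain under every alternative, and 33 or 34 in liver. Of all transcripts, 26.5% to 34.2% were called higher in brain and 9.32% to 31.9% in liver over these alternatives. The member counts include those that entered the main test through their footprint libraries and so had to differ.

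The number of members called for an age change of the ratio was 0 in brain and 1 with DESeq2 (0.341% of all transcripts). In liver it was 0, 4 with the replicate block (6.75% of all transcripts) and 0 to 1 with each animal left out (0% to 0.0472%). For liver RNA-seq it was 0, 1 without the count filter (0.902% of all transcripts), 3 with DESeq2 (8.88%) and 0 to 3 with each library left out (0% to 5.14%). For brain footprints it was 2, 4 without the filter (1.84% of all transcripts), 4 with the replicate block (of animals that share only a number, 2.84%), 4 with DESeq2 (2.84%) and 0 to 4 with each library left out (0.238% to 2.33%). The 9 organ differences in old animals became 3 to 9 with each animal left out, 11 with the replicate block, 12 with median-ratio factors and 13 with DESeq2. The share of all transcripts called moved with them, from 10.2% to between 1.14% and 6.14%, to 10.9%, to 10.9% and to 16.6%. The block moved no other count by over 1.5 times. No direction of a named call reversed. The causes of these moves were not tested. Low RNA counts limit the ratio of the 5 members under 1 CPM in both organs, and that of ENSRNOT00000024084 in liver.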

Other observations

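A pair of members, ENSRNOT00000050159 and ENSRNOT00000001035, chosen here after their values were seen, shared a second-column value of 374 and an RNA pattern in liver. ENSRNOT00000050159 had 4.50, 3.93 and 6.20 RNA-seq CPM in old liver and 4.83, 25 and 21.4 CPM in young liver, so that young animal 1 lay with the old animals. Its footprints were 62.6, 66.2 and 64.2 CPM in old and 64.5, 85.7 and 92.0 CPM in young liver. Its ratio was 13.8, 16.6 and 10.3 in old and 13.2, 3.42 and 4.30 in young liver, a log2 change of 1.21 (SE 0.568, edgeR, adjusted p = 0.504). Without young animal 1, whose ratio lay with the old ones, the change had to grow, and it was 1.5. ENSRNOT00000001035 had 7.95, 7.78 and 10.9 RNA-seq CPM in old liver and 8.80, 19.4 and 17.6 CPM in young liver, with the same animal apart. Its footprints were 43.8, 50.8 and 51.0 CPM in old and 42.9, 65.5 and 79.1 CPM in young liver, so that young animal 1 lay near the old animals here too. Its ratio was 5.47, 6.49 and 4.67 in old and 4.85, 3.37 and 4.49 in young liver (log2 change 0.16, SE 0.337, edgeR, adjusted p = 0.925).

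Outside the members, 29 comparators reached a ratio of 4 in young brain alone and 7 in young liver alone. In old animals 32 comparators reached it in brain and 10 in liver, 4 of them in both.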
